A study of Mus musculus with 9 samples.

Results

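The miR-15, miR-16 and miR-322 family was followed in extracellular vesicles shed by a conditionally immortalized mouse podocyte line, a kidney filter cell type. Its 8 identifiers were taken by name from a table of 1915 mouse miRNAs: mmu-miR-15a-5p, mmu-miR-15b-5p, mmu-miR-15b-3p, mmu-miR-16-5p, mmu-miR-195a-5p, mmu-miR-322-5p, mmu-miR-322-3p and mmu-miR-497a-5p. The cells were left to differentiate over 10 days, with fetal bovine serum in the medium, before 48 h of treatment. High glucose medium held 30 mM glucose, mannitol medium held 5.3 mM glucose with 24.7 mM mannitol to match the osmolality, and normal glucose medium held 5.3 mM glucose. Each group had 3 small RNA libraries of vesicles precipitated with a polymer from the culture medium. All libraries came from this immortalized line, and the labels do not say whether serum vesicles were removed beforehand.

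The family is named for miR-15 and miR-16, small RNAs that guide Argonaute proteins to messenger RNAs and lower their output. Their best known targets are cyclins, cyclin-dependent kinases and the survival factor Bcl2, and the family is known as a brake on the cell cycle. A miRNA hairpin is cut into a 5p and a 3p arm, of which usually a single arm is kept in Argonaute while its partner is degraded. Target choice rests mainly on the seed, bases 2 to 8 of the kept arm.

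The mature sequences are shown because the seed defines the family and separates its 5p arms from its 3p arms. They are from RefSeq on build GRCm38.p6 (all 8 identifiers matched), written 5′ to 3′ with the seed in capitals.
mmu-miR-16-5p: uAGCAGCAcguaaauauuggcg
mmu-miR-195a-5p: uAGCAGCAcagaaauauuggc
mmu-miR-15a-5p: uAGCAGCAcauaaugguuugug
mmu-miR-15b-5p: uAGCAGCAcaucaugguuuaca
mmu-miR-322-5p: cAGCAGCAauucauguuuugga
mmu-miR-497a-5p: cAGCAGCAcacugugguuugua
mmu-miR-15b-3p: cGAAUCAUuauuugcugcucua
mmu-miR-322-3p: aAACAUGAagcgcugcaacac
The 6 5p members shared the seed, while miR-15b-3p and miR-322-3p each had a seed found in no other mature miRNA of that table. Compared base by base from the 5′ end with miR-16-5p, miR-195a-5p was the same at 19 of 21 positions and miR-15a-5p at 16 of 22. The same count was 14 of 22 for miR-15b-5p, 12 of 22 for miR-322-5p and 11 of 22 for miR-497a-5p. Of the 1915 identifiers 1623 had a RefSeq sequence, and the others could not be searched for the seed. Outside the members 4 of the 1623 carried it, miR-195b, miR-6342, miR-6353 and miR-6419. All of these were listed at 0 in every library.

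In the GENCODE annotation of GRCm38 these hairpins fall into 4 clusters. Mir15b (chr3:69009772-69009835, plus strand) and Mir16-2 (chr3:69009902-69009996, plus strand) lie 66 bases apart in an intron of Smc4, a condensin subunit gene. Dleu2, a long non-coding RNA gene on the minus strand, holds Mir15a (mature arms spanning chr14:61632038-61632096) in an intron, and Mir16-1 (chr14:61631880-61631972) overlaps an annotated exon of it. The mature miR-16-5p of both places is the same, so its reads cannot be assigned to either. Mir497 (chr11:70234717-70234800) and Mir195a (chr11:70235042-70235135) are neighbours on the plus strand with no annotated host gene. Mir322 (chrX:53054255-53054349, minus strand) lies 200 bases from Mir503 (chrX:53053984-53054054) and is the mouse counterpart of human miR-424.

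Levels are given as CPM, the usual depth-scaled share of a library's miRNA counts, and the files list no count from 1 to 9, so a listed 0 stands for at most 9 reads. Library totals ran from 725211 to 2553690 miRNA counts, which puts the limit of 9 reads between 3.52 and 12.4 CPM. Of the 8 members 6 were listed in at least 1 library, and 2 of them, miR-16-5p and miR-322-3p, in all 9. Of all 1915 identifiers 479 were listed at least once and 260 in all 9 libraries. Together the 8 members took between 0.0591% and 0.0972% of miRNA counts. The podocyte-associated miR-30 guide arms (5 of 5 listed in every library) summed to 149949 to 224982 CPM in high glucose, 106713 to 177083 CPM with mannitol and 126420 to 140209 CPM in normal glucose.

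The most abundant member was miR-322-3p, which ranked 98 among all identifiers by mean level. It stood at 388.9, 548.3 and 395.1 CPM in high glucose replicates 1 to 3, at 579.9, 465.8 and 524.7 CPM with mannitol, and at 443.0, 351.4 and 374.8 CPM in normal glucose. All mannitol libraries lay above all normal glucose libraries, and the high glucose libraries spread over both.

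Next came miR-16-5p, the member best known for silencing cyclins and Bcl2, at rank 117. It stood at 289.6, 394.8 and 358.7 CPM in high glucose, at 282.1, 234.2 and 150.2 CPM with mannitol, and at 366.3, 205.1 and 444.4 CPM in normal glucose. All high glucose libraries lay above all mannitol libraries, while normal glucose held both the highest and the second lowest value. It made up 88.8% to 95.5% of the summed counts of the 6 5p members in every library.

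The remaining members were at the edge of what these libraries could show. The Dleu2 product miR-15a-5p was listed in 7 libraries, with counts of 0, 15 and 48 in high glucose, 0, 19 and 13 with mannitol, and 19, 21 and 18 in normal glucose. From the Smc4 intron, miR-15b-5p had 10, 11 and 35 counts in high glucose, 11, 18 and 26 with mannitol, and 20, 0 and 10 in normal glucose. Both 5p arms lay near 10 CPM wherever they were listed, between 5.73 and 19.3 CPM for miR-15a-5p and between 8.27 and 13.8 CPM for miR-15b-5p. The cluster partners miR-195a-5p and miR-497a-5p, which in mouse are known for driving heart muscle cells and muscle stem cells out of the cell cycle, were listed at 0 in all 9 libraries, so each was at most 12.4 CPM in the shallowest library and 3.52 CPM in the deepest.

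**Figure D1:**
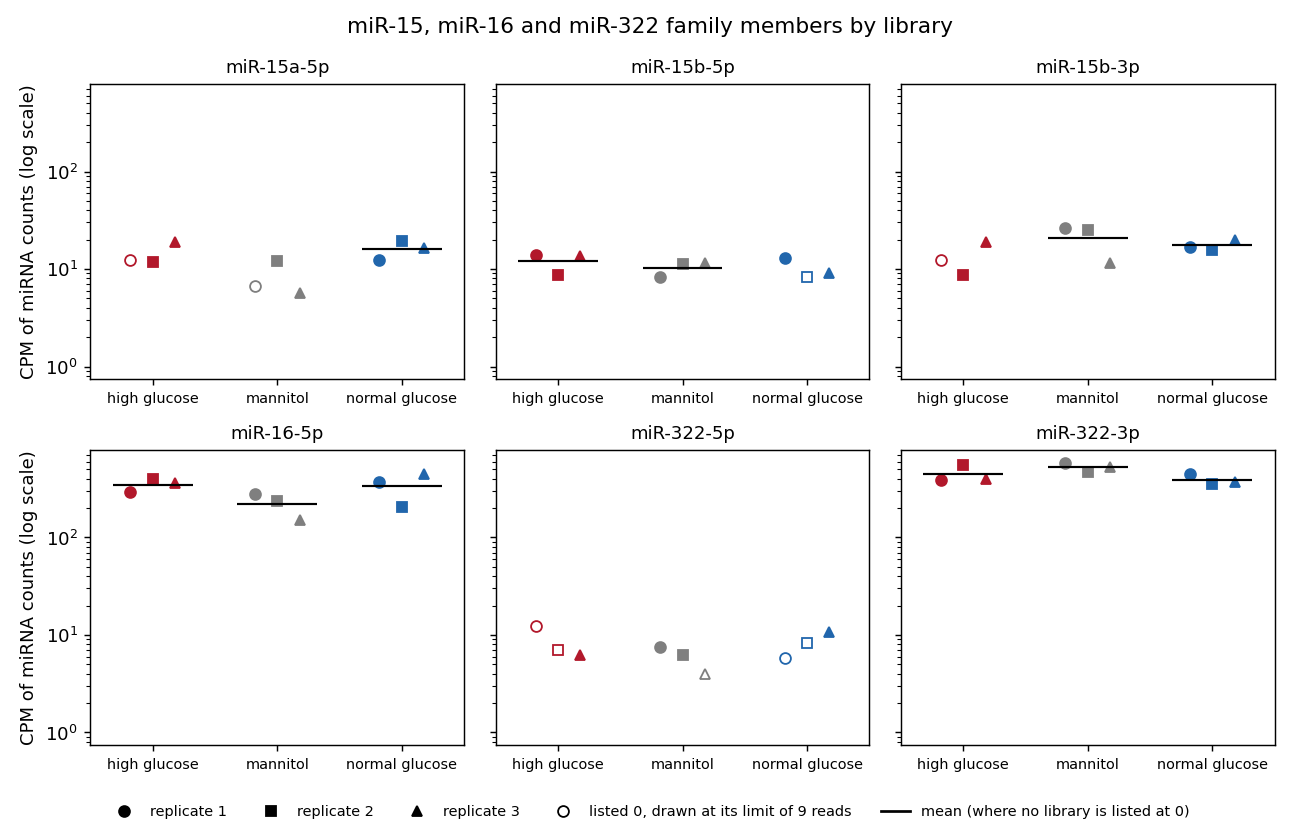
CPM on a log axis for the 6 listed members in each library, with high glucose, mannitol and normal glucose from left to right; open symbols are listed zeros drawn at their limit of 9 reads, and lines are means of 3 libraries, drawn where none of them was listed at 0. The levels of miR-16-5p and miR-322-3p lie between 150.2 and 579.9 CPM in every library, while the other members stay at or below 26.3 CPM.

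The Mir322 hairpin was read almost entirely from the arm that lacks the family seed. The hairpin is shown with both mature arms in capitals, 5p before 3p, since the arms share 1 transcript but were recovered very unequally.
Mir322: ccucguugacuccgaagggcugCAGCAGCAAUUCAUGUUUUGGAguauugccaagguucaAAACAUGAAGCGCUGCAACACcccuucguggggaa
Over all libraries miR-322-3p had 6172 counts and miR-322-5p 48, so the 5p arm held 0.772% of them. The 5p arm was listed in 4 libraries, with 16 counts in high glucose replicate 3, 10 in each of mannitol replicates 1 and 2, and 12 in normal glucose replicate 3. There the 3p arm had 63.1 times its counts in high glucose, 77.1 and 74.0 times with mannitol, and 34.6 times in normal glucose. In the other 5 libraries, with the 5p arm taken as 9 reads, the 3p arm was at least 31.3-fold (high glucose replicate 1) to at least 132-fold (mannitol replicate 3) higher. The longest run of 5p bases with an exact complement in the 3p arm had 9 bases and began at base 10, outside the seed.

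Summed over all libraries, the 3p arm was also the larger at Mir15b, with 225 counts against 141, though not in every library. The Mir15b sequence is given for comparison, since its 3p arm holds the exact complement of the whole seed, bases 2 to 8 of its 5p arm.
Mir15b: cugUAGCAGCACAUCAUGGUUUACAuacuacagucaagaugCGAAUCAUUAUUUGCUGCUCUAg
For miR-15b-3p the counts were 0, 11 and 48 in high glucose, 35, 40 and 26 with mannitol, and 26, 17 and 22 in normal glucose. Where both arms were listed, the 3p arm had 1.0 and 1.37 times the 5p counts in high glucose, 3.18, 2.22 and 1.0 times with mannitol, and 1.30 and 2.20 times in normal glucose. The mean log2 ratio of 5p to 3p was -0.23 ± 0.32 in high glucose (SD, n = 2), -0.94 ± 0.85 with mannitol (SD, n = 3) and -0.76 ± 0.54 in normal glucose (SD, n = 2). These means leave out high glucose replicate 1, with 10 counts of the 5p arm and 0 of the 3p arm. They also leave out normal glucose replicate 2, with 0 of the 5p arm and 17 of the 3p arm. The differences were 0.53 for high glucose against normal glucose (two-sided exact permutation p = 0.667), 0.71 for high glucose against mannitol (exact p = 0.6) and -0.18 for mannitol against normal glucose (exact p = 0.8). The Benjamini-Hochberg adjusted exact p was 0.8 for each of the 3, and designs of this size cannot reach 0.05. For miR-322 no such test was run, since its 5p arm was listed in only 1, 2 and 1 libraries of high glucose, mannitol and normal glucose.

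Other hairpins of the family and its neighbourhood went both ways. For Mir195a the counts over all libraries were 0 for the 5p arm and 86 for the 3p arm, which was listed in 6 libraries with at most 24 counts. For Mir15a they were 153 for the 5p arm and 0 for the 3p arm. The miR-16 partner arms were rare, since miR-16-1-3p was listed in 3 libraries with 12 to 15 counts and miR-16-2-3p in none. At Mir503, whose 5p arm begins with the same 7 bases as miR-16-5p and then departs from the seed, the 3p arm had 952 counts and the 5p arm 269. Per library its 3p arm had 2.76, 2.31 and 2.75 times the 5p counts in high glucose, 7.47, 3.33 and 7.53 times with mannitol, and 3.53, 3.5 and 2.55 times in normal glucose. A larger 3p arm was common in these vesicles: among 215 hairpins with a pair of single-place arms and at least 1 of them listed, the 3p arm was the larger at 110, or 51.2%. Among the 101 of these with at least 1000 counts it was the larger at 47, or 46.5%. These shares take in any excess of the 3p arm and do not rank the size of the excess at Mir322.

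**Figure D2:**
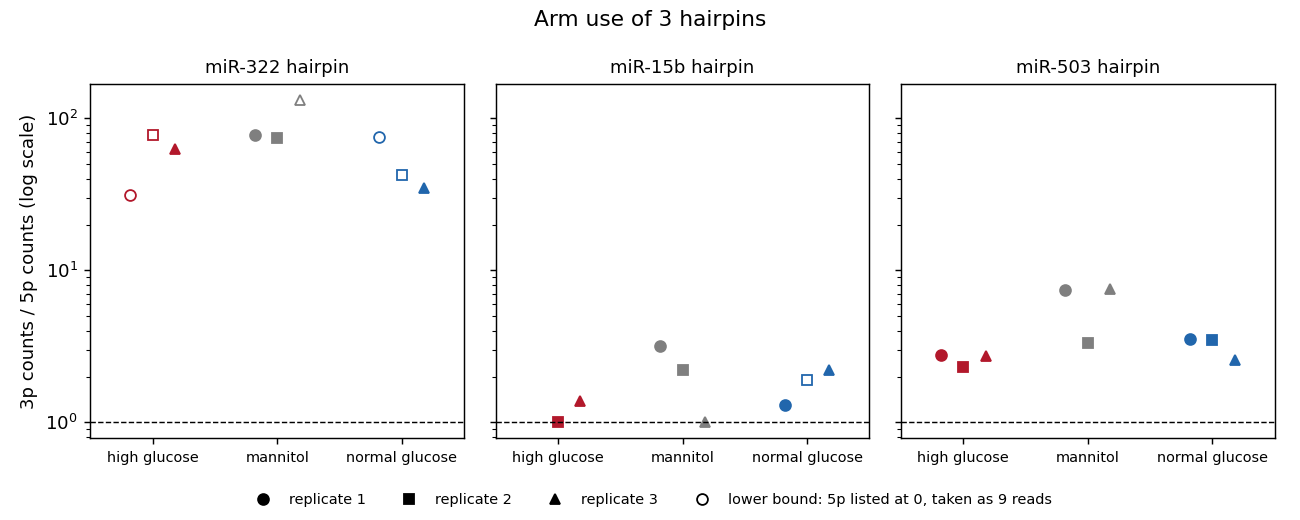
Counts of the 3p arm divided by counts of the 5p arm on a log axis, per library, for the hairpins of miR-322, miR-15b and miR-503, with high glucose, mannitol and normal glucose from left to right; open symbols are lower bounds and the dashed line marks equal counts. For miR-322 every point lies at or above 31.3, while miR-15b lies between 1.0 and 3.18 and miR-503 between 2.31 and 7.53; high glucose replicate 1 of miR-15b is not drawn, since its 3p arm was listed at 0.

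Group differences were taken from edgeR's quasi-likelihood fit over all 361 miRNAs that passed its expression filter, with Benjamini-Hochberg adjustment and a threshold of 0.05. Of the 8 members 5 passed the filter, miR-15a-5p, miR-15b-5p, miR-15b-3p, miR-16-5p and miR-322-3p, and miR-322-5p, miR-195a-5p and miR-497a-5p were not in the fit. No member passed the threshold in any comparison. Since every level is a share of its library, fewer vesicles from podocytes and less of a miRNA per vesicle cannot be told apart in the values that follow.

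High glucose was set against mannitol to ask what glucose adds at matched osmolality, and miR-16-5p had the smallest unadjusted p of the family there. Its high glucose mean was 347.7 ± 53.5 CPM, against 222.2 ± 66.7 CPM in mannitol libraries (SD, n = 3 each). Its log2 fold change was 0.83 (SE 0.33, 95% interval 0.12 to 1.54), and it was higher in 9 of 9 pairs of libraries, but it did not pass (edgeR, unadjusted p = 0.0249, adjusted p = 0.704). Groups did not overlap in this direction for 9 of 361 miRNAs, or 2.49%. The gap was narrow at its closest point, where high glucose replicate 1 stood at 289.6 CPM (exact 95% counting interval 252 to 331) and mannitol replicate 1 at 282.1 CPM (254 to 312). Without mannitol replicate 3, the library with the lowest miR-16-5p, the log2 fold change was 0.62 (SE 0.36), and scaled to the authors' library constant it was 0.37 (SE 0.52) where the median over all 361 was -0.59.

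In the same comparison miR-322-3p had a high glucose mean of 444.1 ± 90.3 CPM, against 523.5 ± 57.1 CPM in mannitol libraries (SD, n = 3 each), and its log2 fold change was -0.06 (SE 0.29, 95% interval -0.68 to 0.56). It was 0.10 without high glucose replicate 1, 0.04 without high glucose replicate 3 and -0.63 (SE 0.51) scaled to the library constant. The rare members gave 0.93 (SE 1.51) for miR-15a-5p, 0.33 (SE 1.37) for miR-15b-5p and -0.93 (SE 1.07) for miR-15b-3p, each with a 95% interval that includes 0. With listed zeros set to their limit of 9 reads, miR-15a-5p had 0.98 (SE 0.45, edgeR unadjusted p = 0.0418, adjusted p = 0.487). Every listed 0 then takes the same count, and 35 of 361 miRNAs were below 0.05 before adjustment, against 19 in the main fit. Leaving out high glucose replicate 3 gave 0.24 for miR-15a-5p and -1.90 for miR-15b-3p. Leaving out mannitol replicate 2 gave 1.998 for miR-15a-5p, and leaving out high glucose replicate 1 gave -0.38 for miR-15b-3p, the other ends of their ranges. With edgeR 0 of 361 miRNAs passed, or 0%, and 19 were below 0.05 before adjustment. DESeq2 called 1 miRNA, miR-182-5p, which is no member, and limma-voom called 0, with 26 for DESeq2 and 29 for limma-voom below 0.05 before adjustment. With the number in the titles as a replicate block, edgeR still called 0, with 52 below 0.05 before adjustment, and miR-16-5p had 0.83 (SE 0.30, edgeR adjusted p = 0.306). Beside the miR-16-5p values, 7 of 8 blood and liver miRNAs were listed and miR-142a-3p was at 0 everywhere. Their summed level was 13495 to 25642 CPM in high glucose libraries, against 15507 to 33520 CPM in mannitol libraries, and their part in the difference was not tested. Most of the sum was miR-122-5p and miR-486a-5p, with means of 13668 and 3680 CPM in high glucose and 17047 and 7612 CPM with mannitol. Of the rarer ones, miR-451a, miR-142a-5p and miR-144-3p also had lower means in high glucose than with mannitol. The means of miR-150-5p (19.7 and 12.1 CPM) and miR-223-3p (7.34 and 4.51 CPM) were higher in high glucose.

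High glucose was set against normal glucose to measure the treatment as a whole. Here miR-16-5p had means of 347.7 ± 53.5 CPM for high glucose, against 338.6 ± 122 CPM for normal glucose (SD, n = 3 each), and its log2 fold change was 0.19 (SE 0.33, 95% interval -0.52 to 0.89). It came to 0.00 without normal glucose replicate 2, the library with the lowest miR-16-5p of that group. For miR-322-3p the log2 fold change was 0.30 (SE 0.29, 95% interval -0.32 to 0.92), higher in 7 of 9 pairs of libraries. The rare members gave -0.47 (SE 1.49) for miR-15a-5p, 0.85 (SE 1.39) for miR-15b-5p and -0.72 (SE 1.07) for miR-15b-3p. With edgeR 0 of 361 passed, or 0%, and 10 were below 0.05 before adjustment. Neither other tool called any, with 15 for DESeq2 and 6 for limma-voom below 0.05 before adjustment. With the replicate block edgeR called 0, with 19 below 0.05 before adjustment.

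Mannitol was set against normal glucose to measure added osmolality alone, and the most abundant members had log2 fold changes of opposite sign. Mannitol libraries averaged 523.5 ± 57.1 CPM of miR-322-3p and normal glucose libraries 389.7 ± 47.6 CPM (SD, n = 3 each), and the log2 fold change was 0.36 (SE 0.29, 95% interval -0.26 to 0.98). It was higher in 9 of 9 pairs of libraries, and 8 of 361 miRNAs, or 2.22%, did not overlap in that direction. For miR-16-5p the mannitol mean was 222.2 ± 66.7 CPM, against 338.6 ± 122 CPM for normal glucose (SD, n = 3 each), and the log2 fold change was -0.64 (SE 0.33, 95% interval -1.35 to 0.07), higher in 2 of 9 pairs. Normal glucose replicate 2, at 205.1 CPM, lay below mannitol replicates 1 and 2. Scaled to the library constant, where the median over all 361 was 0.50, the log2 fold changes were 0.84 for miR-322-3p and -0.27 for miR-16-5p.

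At the low end of the same comparison, miR-15a-5p was lower in all pairs of libraries, with a log2 fold change of -1.40 (SE 1.52). It ran from -2.45 without mannitol replicate 2 to -0.83 without mannitol replicate 1, and was -2.54 (SE 1.69) with the replicate block. With listed zeros set to 9 reads it was -0.97 (SE 0.45, edgeR unadjusted p = 0.0444, adjusted p = 0.998). Under that setting 14 of 361 miRNAs were below 0.05 before adjustment, against 5 in the main fit. Groups did not overlap, with mannitol lower, for 4 of 361 miRNAs, or 1.11%. Its nearest libraries, mannitol replicate 2 and normal glucose replicate 1, both had 19 counts, in libraries of 1588723 and 1539514 miRNA counts. The Smc4 arms gave 0.52 (SE 1.38) for miR-15b-5p and 0.21 (SE 1.06) for miR-15b-3p. With edgeR 0 of 361 passed, or 0%, and 5 were below 0.05 before adjustment. DESeq2 called 0 and limma-voom called 0, with 7 for DESeq2 and 3 for limma-voom below 0.05 before adjustment.

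**Figure D3:**
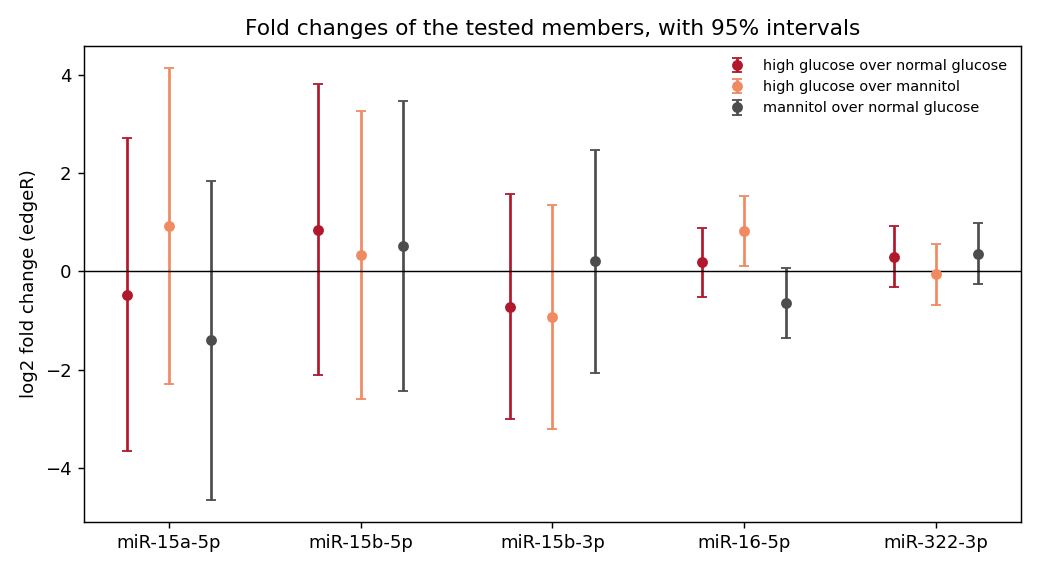
Log2 fold changes from edgeR with 95% intervals for the 5 tested members in the 3 comparisons; values above 0 are higher in the group named before "over". The intervals of the rarer members are much wider than those of miR-16-5p and miR-322-3p, and besides that of miR-16-5p in high glucose over mannitol, 0.12 to 1.54, every interval in the plot includes 0.

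The comparisons share groups, so the low miR-16-5p of the mannitol libraries enters both comparisons with mannitol. A view that needs no scaling is the ratio of miR-16-5p to miR-322-3p counts inside each library, which was chosen after the values were seen and is given with no test. The ratio was 0.745, 0.720 and 0.908 in high glucose, 0.486, 0.503 and 0.286 with mannitol, and 0.827, 0.584 and 1.19 in normal glucose. Every mannitol library lay below every library of the other groups, and high and normal glucose overlapped. The ratio sets the member with its lowest mean with mannitol over the member with its highest mean there. The choice itself therefore favoured this separation, and how often other pairs of miRNAs separate the groups was not measured. The means were 0.791 ± 0.102 in high glucose, 0.425 ± 0.120 with mannitol and 0.865 ± 0.303 in normal glucose (SD, n = 3 each). Leaving out a library, the mannitol mean ran from 0.386 to 0.494 and the other means from 0.705 to 1.01. Mannitol replicate 3, the lowest by this ratio, also had the highest summed level of muscle miRNAs, 5994 CPM against 1368 to 3029 CPM elsewhere, and the highest of blood and liver miRNAs, 33520 CPM, whose part in the ratio was not tested. Most of that muscle sum was miR-1a-3p, with 8676 counts in mannitol replicate 3. The mannitol and normal glucose means were 1423 and 1813 CPM for miR-206-3p, and 308 and 207 CPM for miR-133a-3p.

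**Figure D4:**
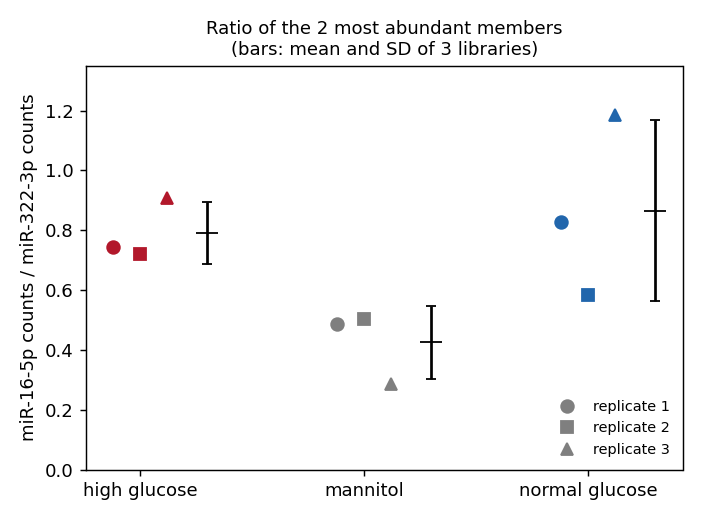
Counts of miR-16-5p divided by counts of miR-322-3p in each library, with high glucose, mannitol and normal glucose from left to right; bars give the mean and SD of 3 libraries. The mannitol libraries lie between 0.286 and 0.503 and all other libraries between 0.584 and 1.19, for a ratio chosen after the values were seen.

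Summed over the 6 5p members, levels were 372.0 ± 60.1 CPM for high glucose, 243.0 ± 67.7 CPM for mannitol and 365.5 ± 130 CPM for normal glucose (SD, n = 3 each), with listed zeros counted as 0. The ratio of means was 1.53 for high glucose over mannitol, 1.02 for high glucose over normal glucose and 0.665 for mannitol over normal glucose. The sum follows miR-16-5p, which supplied most of its counts, and says little of the other 5p arms.

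The neighbours of Mir322 on chromosome X include miR-503, which like miR-322 is known to be induced as muscle cells differentiate, and also miR-351, miR-542 and the miR-450 hairpins. Of 11 such identifiers 8 were listed in some library, 7 passed the filter and 0 passed the threshold in any comparison. In high glucose against normal glucose 5 of 7 were higher with a median log2 fold change of 0.23, beside a median of -0.04 and 168 of 361 higher over all tested miRNAs. The median was 0.01 in high glucose against mannitol (4 of 7 higher), beside -0.04 and 168 of 361 higher over all. It was 0.23 in mannitol against normal glucose (6 of 7 higher), beside 0.01 and 188 of 361 higher over all. The 7 are arms of the miR-503, miR-351, miR-542 and miR-450b hairpins, so several share a hairpin and all lie in 1 cluster. Their most abundant member, miR-542-3p, had levels of 211.0, 528.7 and 364.2 CPM in the high glucose libraries, 179.0, 424.2 and 199.1 CPM with mannitol, and 174.7, 239.2 and 236.6 CPM in normal glucose. Its log2 fold change in high glucose against normal glucose was 0.89 (SE 0.45, edgeR adjusted p = 0.995), and high glucose replicate 1 lay below normal glucose replicates 2 and 3.

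Likeness to the most abundant members was measured as Pearson's r of scaled log2 CPM over the 9 libraries, against 258 other miRNAs listed in all of them, and is a description without a test. For miR-16-5p the nearest were miR-34a-5p (r = 0.829), miR-103-3p (r = 0.821), miR-19b-3p (r = 0.779), miR-7a-5p (r = 0.775) and miR-503-5p (r = 0.768). Among the 258 miRNAs, 226 had a sequence in the table, and 3 of these carried AGCAGC within their first 8 bases, the opening of the family seed. They were miR-103-3p, miR-107-3p and miR-503-5p, of which 2 stand in the list just given and miR-107-3p does not. In miR-103-3p and miR-107-3p these bases start at the first base, so their seed is GCAGCAU and not that of the family. The search was made with the list already seen, so it is no test of whether likeness follows the seed. Against miR-486a-5p, a miRNA abundant in red cells, miR-16-5p had an r of -0.763, and against miR-451a, another such miRNA, -0.577. Against miR-122-5p, which is on the blood and liver list but is not a red cell miRNA, r was -0.596. No other miRNA of that list was listed in all 9 libraries. No r was taken for the others, so these values do not describe the whole list.

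For miR-322-3p the nearest were miR-27b-5p (r = 0.663), miR-31-5p (r = 0.620), miR-140-3p (r = 0.620), its cluster neighbour miR-351-5p (r = 0.588) and miR-30c-2-3p (r = 0.553), all lower than the values of miR-16-5p. Between miR-322-3p and miR-16-5p r was -0.052. With its nearest neighbour in the genome miR-322-3p had an r of -0.184 for miR-503-5p and 0.122 for miR-503-3p. The points of each r share library depth and treatment, and the mean level was 47.2 CPM for miR-34a-5p and 20.5 CPM for miR-503-5p.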

How the data were processed

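Per the file headers, the deposited tables hold total counts and normalized values for each miRNA. The counts were used as deposited. The deposited RPM values were found to be the count over a single constant of its library; the sources used here do not define that constant. The submitters' processing notes name bcl2fastq, BWA and the build mm10, with no version or setting stated. Adapter ligation kits recover sequences unequally, so levels of different miRNAs carry that limit. Groups follow the treatment label, and the labels give no batch. No label says that the libraries of a group are separate cultures, and p-values therefore reflect the spread among these libraries alone, which may be technical. Within each group no pair of libraries agreed within sampling noise (chi-square per degree of freedom 74.8 to 645).

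Counts were fitted across all miRNAs with edgeR 4.0.16 in R 4.3.3 (TMM, expression filter, robust quasi-likelihood, all 9 libraries). Exact permutation tests used SciPy 1.17.1, and figures matplotlib 3.10.9. Alternatives used DESeq2 1.42.0 and limma 3.58.1. Exact intervals (Clopper-Pearson) and limits from 9 reads cover counting error only. Libraries of the same title number deviated together in high glucose and normal glucose (r 0.197 to 0.316) and in high glucose and mannitol (r 0.169 to 0.521), so the replicate block is given beside those comparisons. Libraries of unlike number had r of -0.271 to 0.037 in high glucose and normal glucose. In high glucose and mannitol these ran from -0.451 to 0.112. In each group the title without a number was taken as replicate 1. Named outside the members were relatives by a list of names and the 5 miRNAs most like each of the 2 most abundant members. The members and lists were chosen with earlier results of these data known, and miR-107-3p, miR-182-5p and the ratio of miR-16-5p to miR-322-3p after their values were seen.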

Additional observations from a re-analysis of the deposited data

How the results depend on the processing

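No member passed the adjusted threshold under any of the alternatives run, and counts of called miRNAs stayed at 0 except without the expression filter (2 in high glucose against normal glucose, 3 in high glucose against mannitol and 1 in mannitol against normal glucose) and with DESeq2 (1 in high glucose against mannitol). With a library left out edgeR called 0 to 0 in each comparison. In high glucose against mannitol, miR-16-5p kept its sign under all 19 alternatives (0.37 to 1.01), and edgeR, DESeq2 and limma-voom gave an adjusted p of 0.117 to 0.999. Signs of uncalled values turned for miR-15a-5p in high glucose against normal glucose (0.0071 with zeros set to 9 reads, and -1.08 to 0.087 with a library left out, the upper end without high glucose replicate 1), for miR-15b-5p in high glucose against mannitol (-0.20 scaled to the library constant, -0.057 with the GC trend removed and the replicate block) and in mannitol against normal glucose (-0.025 without normal glucose replicate 2 to 1.26 without normal glucose replicate 1), and for miR-15b-3p there (-0.029 with limma-voom, and -0.0049 without mannitol replicate 2 to 0.50 without mannitol replicate 3). With a library left out, miR-16-5p was 0.00 to 0.37 in high glucose against normal glucose, and miR-322-3p -0.25 to 0.10 in high glucose against mannitol. The cause was not tested. With a library left out the miR-15b arm difference was 0.15 to 0.91 in high glucose against normal glucose, 0.35 to 1.18 in high glucose against mannitol and -0.65 to 0.20 in mannitol against normal glucose (0.18 without mannitol replicate 1, 0.20 without normal glucose replicate 1), and the ratio of summed 5p levels was 0.853 to 1.21, 1.32 to 1.73 and 0.557 to 0.789. Same-numbered libraries of mannitol and normal glucose did not all deviate together (r -0.058 to 0.229, beside -0.286 to 0.199 for unlike numbers). The replicate block in edgeR gave 0 calls there, with 17 at an unadjusted p under 0.05. The rare members had at most 48 counts a library, and setting their listed zeros to 9 reads narrowed the SE of miR-15a-5p to 0.45 in both comparisons with mannitol. In high glucose against normal glucose, miR-15a-5p was -1.54 (SE 1.68) with the replicate block, and with a library left out miR-15b-5p ran from 0.33 to 1.59 and miR-15b-3p from -1.61 to -0.17. Without the expression filter miR-322-5p had -0.42 (SE 2.88) in that comparison. The test of the miR-322 arm ratio and its alternatives were not run.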
